A study of Mus musculus with 2 samples.

Results

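A set of 10 imprinted genes that neurons are known to use was followed in ribosome-associated RNA of the mouse dentate gyrus. They are Meg3, Rian, Mirg, Dlk1, Peg3, Snrpn, Ndn, Impact, Nap1l5 and Ube3a. The genes were chosen by symbol, and all 10 have a line in both count tables, out of 32531 gene lines. The RNA came from adult, untreated mice of the transgenic line OI82, labelled Lypd1-EGFP/Rpl10a. These mice carry the ribosomal protein Rpl10a fused to EGFP under regulatory sequence of Lypd1. Tagged polysomes were pulled from the dissected dentate gyrus with antibodies against EGFP, a method called translating ribosome affinity purification (TRAP). Both libraries, replicates 1 and 2, are such pull-downs of 1 group. The sources used here give neither the sex, nor the exact age, nor whether a library is 1 animal or a pool, so part of the spread between the libraries may be technical. An input library was not analysed here, and with 1 group there is no contrast between conditions and no p-value.

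An imprinted gene is transcribed mainly from the copy inherited from a particular parent, and the choice is held by DNA methylation set in the germ line. Imprinted genes sit in clusters in which protein-coding genes and long noncoding RNAs are often read from opposite parental copies. In the mouse, Meg3, Rian and Mirg are noncoding RNAs read from the maternal copy of the Dlk1-Dio3 cluster, while Dlk1 is read from the paternal copy. Peg3, Snrpn, Ndn, Impact and Nap1l5 are read from the paternal copy. Ube3a, the gene lost in Angelman syndrome, is read from the maternal copy in neurons, where an antisense extension of the Snrpn transcript covers its paternal copy. The counts do not separate the parental copies, so every level is the sum over both.

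The libraries held 31309643 and 32711412 counts on gene lines. Levels are counts per 1000000 such counts (CPM), given as mean ± SD over n = 2. All 8 pan-neuronal markers and all 8 dentate granule cell markers were above 1 CPM in both libraries, with list medians of 704 and 307 CPM. Astrocyte and endothelial markers had medians of 12.5 and 2.59 CPM, with 5 of 6 and 4 of 5 members above 1 CPM, and 5 of 6 oligodendrocyte markers were above 1 CPM. The highest of these oligodendrocyte markers, Mbp, had a mean of 113 CPM. Of the GABAergic interneuron markers 3 of 8, and of the markers of newborn neurons and progenitors 3 of 6, were above 1 CPM. Of all gene lines 38.1% were, so the share of interneuron markers is no sign of depletion. The GABAergic list had a median of 1.68 CPM, but Gad1 and Gad2 had means of 62.8 and 31.3 CPM. Sst, Dlx1 and Lhx6 had means of 2.67, 1.92 and 1.44 CPM, and Slc32a1, Pvalb and Vip had means below 1 CPM. Reads on marker lines of cells other than granule cells were therefore present. Which cells these reads came from was not tested. No microglial marker reached 1 CPM in both libraries, and C1qa and C1qb had 0 counts. Lypd1 itself stood at 265 and 194 CPM. Pairs of values are given as replicate 1, then replicate 2. In this bulk RNA, fewer cells of a type and less RNA per cell cannot be told apart.

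The noncoding RNAs of the Dlk1-Dio3 cluster carry small RNAs within their introns and exons, and these are shown because the counts of host and passenger are set side by side in the results. The mature miRNA sequences are from RefSeq (GRCm38.p6), written 5′ to 3′ with the seed, bases 2 to 8, in capitals. The seed is the stretch that pairs with a target message. The first lies within Meg3 and the next within Rian, and the latter shares its seed with miR-1193-3p, from farther along the cluster. The next pair, miR-453 and miR-496a-5p, lie within Mirg and share a seed. miR-410-5p, also within Mirg, shares its seed with miR-494-5p. The last, known in rat hippocampal neurons for limiting the size of dendritic spines, overlaps an exon of Mirg in GENCODE M21.
miR-770-5p: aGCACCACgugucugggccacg
miR-370-5p: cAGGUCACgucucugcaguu
miR-1193-3p: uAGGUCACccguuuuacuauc
miR-453: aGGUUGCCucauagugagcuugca
miR-496a-5p: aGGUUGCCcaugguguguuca
miR-410-5p: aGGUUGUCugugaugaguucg
miR-494-5p: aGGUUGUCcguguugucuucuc
miR-134-5p: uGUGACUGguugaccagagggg
Among the 113 mature miRNAs of the Dlk1 to Dio3 interval there were 104 seeds. Of these, 9 seeds were shared by a pair of miRNAs. The small nucleolar RNAs of the cluster lie within Rian, and the sequences of the 2 with the highest counts are from the GENCODE M21 transcripts, with the first TGATGA and the last CTGA in capitals. Those letters are the C and D boxes that define this class of small nucleolar RNA.
DQ267101: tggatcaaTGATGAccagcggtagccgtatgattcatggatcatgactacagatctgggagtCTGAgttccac
AF357425: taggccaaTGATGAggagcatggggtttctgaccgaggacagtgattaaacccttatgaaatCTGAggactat

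Of the 10, 9 reached 1 CPM in both libraries, where 38.1% of all gene lines did, and 7 reached 5 CPM, where 29.4% did. Meg3 stood far above the rest, 6 genes lay between 38.7 and 238 CPM, and Mirg and Snrpn lay just above the threshold. Dlk1 had no count. The 10 genes together took 0.273% of gene counts in replicate 1 and 0.288% in replicate 2. The genes were chosen as genes known from neurons, so a high detected share describes the choice as well as the tissue.

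**Figure D1:**
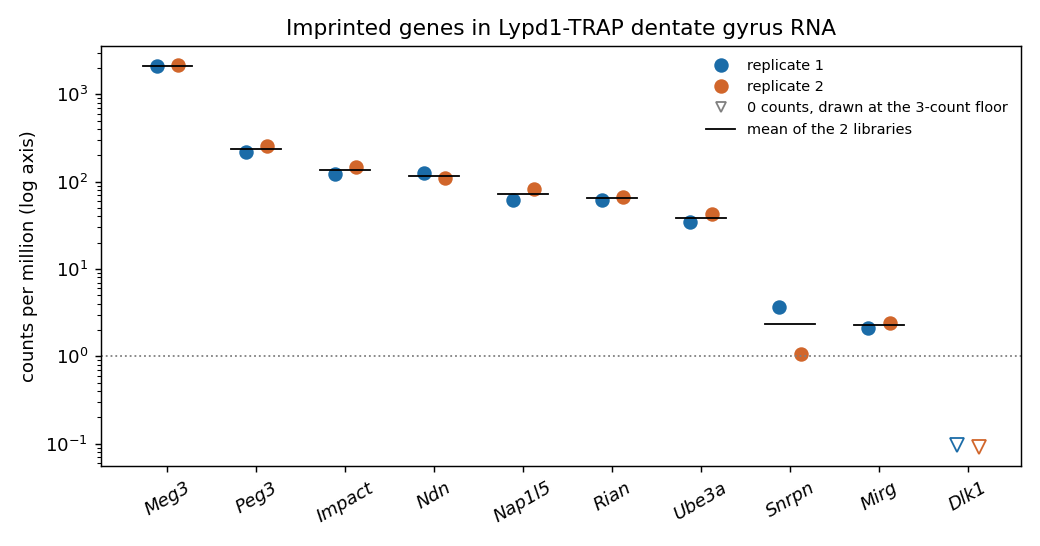
CPM (log axis) of the 10 imprinted genes, with 1 point per library and a bar at the mean; open triangles mark genes with 0 counts at the level that 3 counts would give, and the dotted line is 1 CPM. Meg3 is at 2133 CPM, the next gene, Peg3, at 238 CPM, and both libraries of Snrpn lie below 4 CPM and apart from each other.

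Meg3, a long noncoding RNA known for a tumour suppressor role in human cells, was counted 65648 times in replicate 1 and 70981 times in replicate 2. That is 2097 and 2170 CPM, with a mean of 2133 ± 51.7 CPM, and it ranked 23 of all gene lines. The libraries were close, with a fold of 1.10 between them. Meg3 lies on chromosome 12 (109541001 to 109571726, plus strand, GRCm38, GENCODE M21). Its exons cover 18089 bases, and 1228 of these are also exons of a gene on the opposite strand. No source used here states the strand setting of the counting, and without one such partners cannot be told apart.

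Rian, the noncoding RNA downstream of Meg3 that hosts small nucleolar RNAs, was at 61.7 CPM, then 66.8 CPM (64.3 ± 3.58 CPM). It lies at 109603940 to 109661716 on the plus strand of chromosome 12. Mirg, which hosts miRNAs and lies at 109729764 to 109749460 on the same strand, was at 2.11 and 2.42 CPM (2.26 ± 0.217 CPM), from 66 and 79 counts. In both libraries the level was lower with each gene along the cluster, from Meg3 to Rian to Mirg.

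Within 1 library the ratio of 2 counts needs no scaling, though it compares reads and not molecules. Counts of Meg3 were 34.0 times those of Rian in replicate 1 (exact 95% interval 32.5 to 35.6) and 32.5 times in replicate 2 (31.1 to 33.9). Against Mirg they were 995 times (782 to 1286) and 898 times (721 to 1135). Rian stood 29.3 times (22.9 to 38.0) and 27.7 times (22.1 to 35.1) above Mirg. For each of these 3 pairs the intervals of the libraries overlap. All intervals here cover counting error alone and no other difference between libraries. They take each read as independent. Reads without molecular identifiers are not independent molecules, so the intervals may be too narrow.

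Dlk1, a transmembrane relative of the Notch ligands, is the first gene of the cluster (109452823 to 109463336, plus strand). It had 0 counts in both libraries. The limit set by 0 counts, taken as 3 counts per library, is 0.0958 and 0.0917 CPM. Against that limit, Meg3 was at least 21883-fold higher in replicate 1 and 23660-fold in replicate 2. The other protein-coding genes of the cluster were also scarce. Rtl1, a gene derived from a retrotransposon, was at 2.49 and 1.44 CPM. Dio3, which encodes the enzyme that inactivates thyroid hormone, had 3 and 11 counts. Meg3 and Rian stood above each of these protein-coding genes in both libraries, while the counts of Mirg and Rtl1 overlapped.

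Every line of the tables between Dlk1 and Dio3 was then listed, by RefSeq positions on chromosome 12 (109452485 to 110281097). Of 72 lines, 26 had a count. Meg3 held 94.9% of the counts of the interval in replicate 1 and 94.1% in replicate 2, and Rian held 2.80% and 2.90%. The interval has 58 lines for miRNA hairpins. Of these, 43 had 0 counts in both libraries, and all 58 together gave 54 and 40 counts. The highest hairpin line was Mir1188, within Rian, with 23 and 14 counts. The hairpins of miR-770 within Meg3 and of miR-134, whose mature forms are printed above, had 0 counts. The protocol does not describe a small RNA library, and no source used here says how reads over both a hairpin and its host exon were assigned. The hairpin counts are therefore no measure of mature miRNA.

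The exception among the small RNA lines was DQ267101, a small nucleolar RNA within Rian (109651424 to 109651495 in RefSeq). It had 1261 counts in replicate 1 and 1933 in replicate 2, or 40.3 and 59.1 CPM, against 61.7 and 66.8 CPM for Rian. AF357425, the next of its class, had 95 and 117 counts, while AF357426, AF357355 and DQ267102 had at most 16. In GENCODE M21 both DQ267101 and AF357425 overlap exons of Rian, so the reads on their lines may belong to either RNA.

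**Figure D2:**
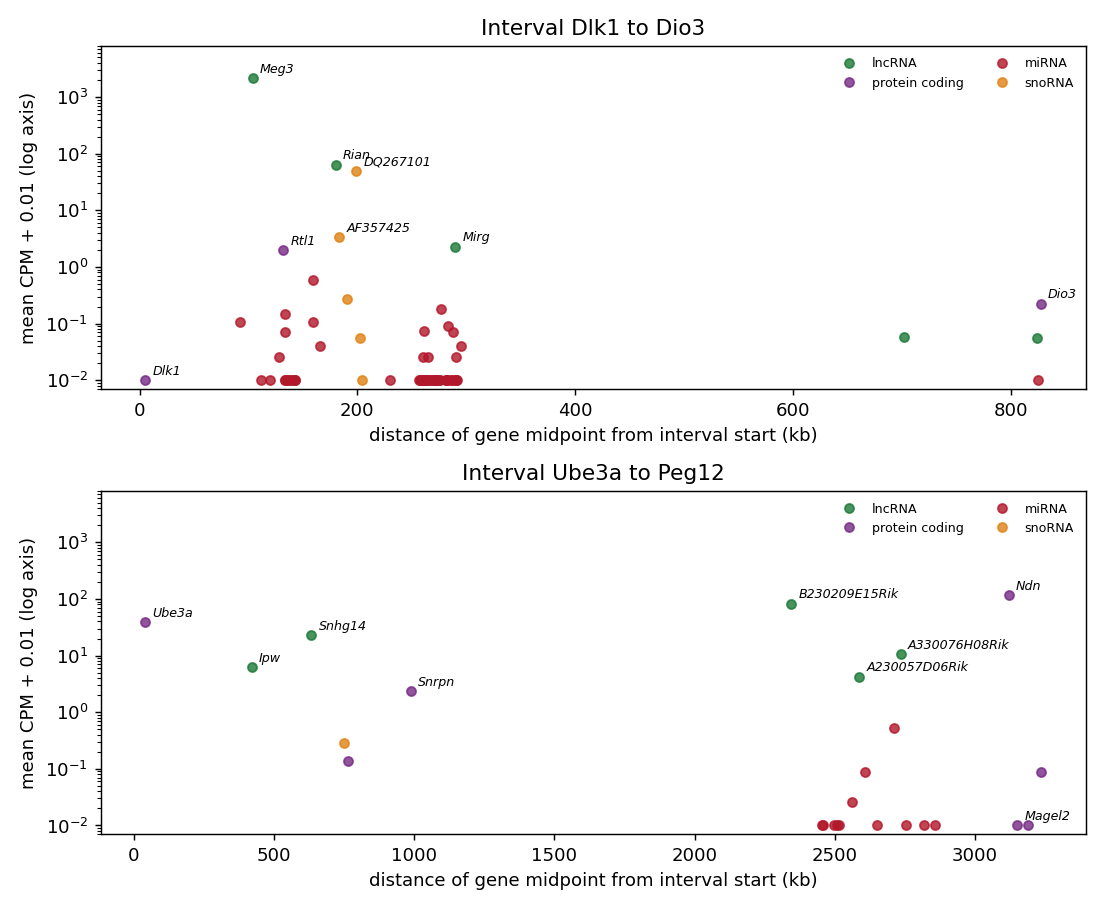
Mean CPM of the 2 libraries, plus 0.01 so that 0 can be drawn on the log axis, of each long noncoding RNA, protein-coding, miRNA and small nucleolar RNA line, by distance in kilobases of its midpoint from the start of 2 imprinted intervals. In the Dlk1 to Dio3 interval Meg3 and Rian stand above a row of miRNA lines at or near 0, and in the Ube3a to Peg12 interval Ndn is the highest line.

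Ndn, Ube3a and Snrpn lie in the cluster lost in Prader-Willi and Angelman syndromes, on chromosome 7, and they differed widely. Ndn, which encodes the neuronal MAGE family protein necdin, was counted at 125 and 109.9 CPM (117 ± 10.6 CPM). It is a gene of a single exon (62346569 to 62350262, plus strand), and it held 40.8% and 41.3% of the counts between Ube3a and Peg12. Its neighbour and relative Magel2 had 0 counts. Against the 3-count limit of Magel2, Ndn was at least 1304-fold higher in replicate 1 and 1199-fold in replicate 2. Mkrn3, a ring finger gene beside them, also had 0 counts, and Peg12 had 0 and 5.

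Ube3a, a ubiquitin ligase, was at 34.8 and 42.7 CPM (38.7 ± 5.60 CPM). It lies at 59228750 to 59311536 on the plus strand. Of its 20626 exon bases, 5624 are also exons of genes on the opposite strand, among them Snhg14, the antisense transcript of the paternal copy. Snhg14 was at 22.9 ± 2.70 CPM. Counts of Ube3a were 1.40 times those of Snhg14 in replicate 1 (1.28 to 1.54) and 2.03 times in replicate 2 (1.85 to 2.23). The intervals of this ratio do not overlap between the libraries, with Ube3a higher and Snhg14 lower in replicate 2. The fall of Snhg14 was small. On the scaled totals used for ratios below, its log2 ratio was -0.15, with a counting interval from -0.30 to 0.002. Of all genes at 10 CPM or more, 71.3% differed at least as much. Ipw, a noncoding RNA line within the RefSeq span of Snhg14, was at 8.59 and 3.73 CPM.

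Snrpn, which encodes a neuronal protein of the splicing machinery, was at 3.64 and 1.07 CPM (2.36 ± 1.82 CPM), from 114 and 35 counts. It was the member with the widest gap between the libraries, and replicate 1 was the higher. In GENCODE M21 34.1% of its exon bases (59982495 to 60140219, minus strand) are also exons of other genes, Snurf among them. In RefSeq the whole span of Snurf (59982495 to 60005199) lies within Snrpn and ends at the same base. Snurf, read from the same bicistronic transcript, had 7 and 1 counts. Reads over several genes are kept on a separate line of the tables, which held 1259114 and 1291880 counts over all genes. How many of those are of Snrpn was not tested, so its level here is uncertain.

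Peg3, a zinc finger protein gene on chromosome 7 (6703892 to 6730431, minus strand), was the highest protein-coding member. It stood at 218 and 257 CPM (238 ± 27.6 CPM), with rank 777 of all lines. Its neighbours in the same cluster were lower. Usp29, a ubiquitin protease gene that starts on the opposite strand, was at 30.7 and 42.0 CPM. Zim1, another zinc finger gene, was at 4.70 and 7.76 CPM, and the antisense line Peg3os had 0 counts. All 3 counted genes were higher in replicate 2. Counts of Peg3 were 7.12 times those of Usp29 in replicate 1 (6.65 to 7.62) and 6.12 times in replicate 2 (5.78 to 6.48).

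The starts of Peg3 and Usp29 lie 96 bases apart in RefSeq, so 1 window holds both. The 300 bases from 250 before to 50 after a start are shown for 3 members, from RefSeq (GRCm38.p6) and on the gene's own strand, with each CpG in capitals. CpG is the dinucleotide that carries the methylation of imprinting. Peg3 is shown for the shared start. Ube3a and Rian are shown because their windows held the most and the fewest CpGs among the 9 members examined. Impact was left out of this step. The windows are chr7:6730370-6730669 for Peg3, chr7:59228500-59228799 for Ube3a and chr12:109603695-109603994 for Rian.
Peg3: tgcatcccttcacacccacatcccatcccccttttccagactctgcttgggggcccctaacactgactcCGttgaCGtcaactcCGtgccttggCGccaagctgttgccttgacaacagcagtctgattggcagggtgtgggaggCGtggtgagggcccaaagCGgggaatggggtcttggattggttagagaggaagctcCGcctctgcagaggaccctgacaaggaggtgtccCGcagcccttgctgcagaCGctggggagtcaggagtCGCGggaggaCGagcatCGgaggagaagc
Ube3a: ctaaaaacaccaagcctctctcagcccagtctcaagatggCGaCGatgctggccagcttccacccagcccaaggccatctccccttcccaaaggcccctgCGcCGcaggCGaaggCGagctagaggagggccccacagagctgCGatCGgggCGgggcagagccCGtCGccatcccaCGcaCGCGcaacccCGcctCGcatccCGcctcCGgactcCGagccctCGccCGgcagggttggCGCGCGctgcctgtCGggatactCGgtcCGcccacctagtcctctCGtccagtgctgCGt
Rian: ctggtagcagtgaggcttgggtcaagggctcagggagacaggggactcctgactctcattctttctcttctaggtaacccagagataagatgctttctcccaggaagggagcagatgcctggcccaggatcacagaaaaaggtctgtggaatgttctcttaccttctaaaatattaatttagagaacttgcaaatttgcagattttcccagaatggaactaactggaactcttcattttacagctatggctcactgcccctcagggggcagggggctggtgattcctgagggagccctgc
The window of Peg3 held 13 CpGs, that of Ube3a 29 and that of Rian 0. The motif is CG, which reads the same on both strands, and the median over 32851 windows of the same length was 7. At least 29 were found in 12.9% of windows and at least 13 in 37.9%. Nap1l5 had 17 and Ndn 11. Mirg had 10 and Dlk1, without a count, 9. Meg3 had 13 at 1 start and 1 at the other, and the 4 starts of Snrpn had 2 to 7. The number of CpGs did not order the members by level, since Meg3 and Peg3 have the same 13 and Ube3a, with the most, was lower than either. These counts describe the letters and say nothing of methylation, which was not measured.

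Impact and Nap1l5 are imprinted outside the large clusters. Impact, which restrains the kinase Gcn2 and so eases translation in neurons, lies on chromosome 18 (12955852 to 12992950, plus strand). It was at 122 and 147 CPM (135 ± 17.7 CPM). Nap1l5, a relative of nucleosome assembly proteins, lies on chromosome 6 (58905233 to 58907076, minus strand) within the larger gene Herc3. Nap1l5 stood at 62.0 and 82.5 CPM (72.2 ± 14.5 CPM). Its counts were 0.188 times those of Herc3 in replicate 1 (0.179 to 0.197) and 0.213 times in replicate 2 (0.204 to 0.222). No exon of either gene overlaps one of the other in GENCODE M21. Both Impact and Nap1l5 were higher in replicate 2.

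Per kilobase of exon the order of the members changed, since their lengths differ by more than a factor of 10. Meg3 was again first at 118 ± 2.86 CPM per kilobase, above 98.7% of 14556 genes with a count in both libraries and a length. The short gene Nap1l5 came next at 39.2 ± 7.86, and Ndn followed at 31.8 ± 2.88. The ranges of these neighbours over the libraries overlap. In RefSeq Ndn is shorter (62348277 to 62349928) than its GENCODE M21 exon, which would raise its value per kilobase. The place of Ndn on that length was not computed. Impact was at 26.3 ± 3.46 and Peg3 at 17.8 ± 2.07 CPM per kilobase. Rian, at 3.52 ± 0.196, lay near the median of all such genes, which was 3.11. Ube3a (1.88 ± 0.272), Snrpn (1.09 ± 0.842) and Mirg (0.310 ± 0.0298) lay below it, and the ranges of Ube3a and Snrpn overlap. Of the 8 pairs of neighbours in the order, 6 did not overlap.

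With the longest transcript in place of all exons, Rian rose to 7.95, Ube3a to 3.93, Mirg to 0.592 and Peg3 to 27.3 CPM per kilobase, and Impact (35.8) passed Ndn. Over exon bases shared with no other gene Snrpn was at 1.66. With replicate 1 alone, Ndn passed Nap1l5 and Snrpn equalled Ube3a at 1.69 CPM per kilobase.

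**Figure D3:**
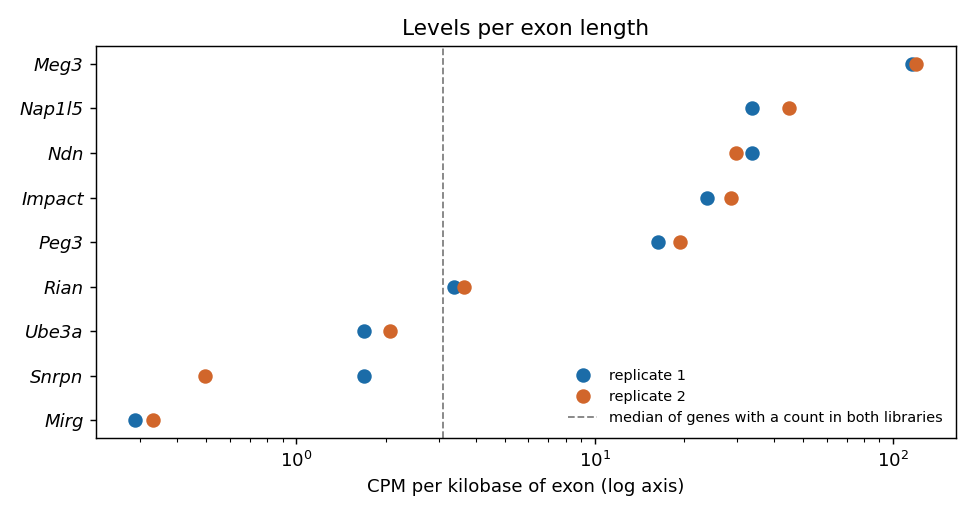
CPM per kilobase of GENCODE M21 exon (log axis) of the 9 members with counts, with 1 point per library; the dashed line is the median of genes with a count in both libraries. Meg3 is apart at 118, and Nap1l5, Ndn, Impact and Peg3 form a group between 17.8 and 39.2.

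The log2 ratios of the 7 members with a mean of at least 10 CPM lay between -0.09 and 0.50. Of these 7, none was 1.5-fold higher in replicate 2, where 9.44% of 8442 such genes were, and none was 1.5-fold higher in replicate 1, where 7.12% were. Set against such shares, a count of 0 among 7 is no finding about the members. The median absolute log2 ratio over all such genes was 0.27, and 4 of the 7 members exceeded it. Ratios use totals scaled by edgeR's trimmed mean of M values (TMM) and a prior count of 2, and they compare libraries and not conditions. With library totals alone the shares over all genes turned to 6.53% and 10.5%, and the count of members stayed at 0 in both directions. No test was run, so no unadjusted p stands beside these counts.

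Nap1l5 had the largest log2 ratio of replicate 2 to replicate 1 among the 7, at 0.50 (95% counting interval 0.42 to 0.59). Of all genes at 10 CPM or more, 22.5% differed at least as much. Ube3a followed at 0.39 (0.27 to 0.50), Impact at 0.36 (0.30 to 0.42) and Peg3 at 0.33 (0.28 to 0.38). The shares of genes that differed at least as much were 33.4%, 36.5% and 41.0%. Rian was at 0.21, Meg3 at 0.14 and Ndn, the only one of the 7 below 0, at -0.09 (-0.16 to -0.03). For these the shares were 60.8%, 72.4% and 81.2%. The median of the 7 was 0.33 and that of all such genes 0.03. Above 0 were 6 of the 7, beside 52.8% of all such genes, and this difference was not tested. With library totals alone the median over all such genes was -0.06.

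Below 10 CPM, Mirg had a log2 ratio of 0.28 with an interval from -0.20 to 0.78, so its libraries differed by less than counting error. Snrpn had a log2 ratio of -1.62 (-2.26 to -1.12), or 3.07-fold higher in replicate 1. That gap is larger than counting error if reads are independent. Of all genes at 10 CPM or more, 0.486% differed at least as much, but Snrpn lies below that level. Of the 16707 genes with a count in both libraries, at any level, 35.0% differed at least 1.5-fold. The share of those genes that differed as much as Snrpn was not computed. The 8 listed genes switched on by neuronal activity summed to 712 and 3483 CPM. Most of that sum was Egr3 (304 and 2071 CPM) and Homer1 (151 and 767 CPM). Arc had the largest fold (33.2 and 265 CPM). Egr1 (112 and 86.2 CPM) and Npas4 (4.82 and 2.35 CPM) were higher in replicate 1. Of the 6 listed genes at 10 CPM or more, 5 were at least 1.5-fold higher in replicate 2, beside 9.44% of all such genes. None of the 6 was 1.5-fold higher in replicate 1, beside 7.12%. The part of the activity genes in the differences of the members was not tested.

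**Figure D4:**
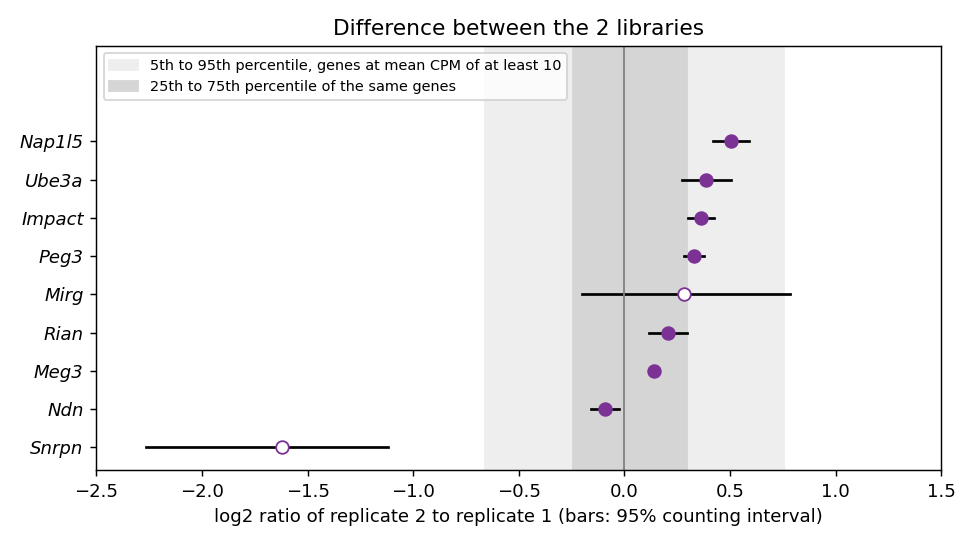
Log2 ratio of replicate 2 to replicate 1 of the 9 members with counts, with 95% counting intervals; filled points are members with a mean of at least 10 CPM and the grey bands span genes at that level. All filled points lie between -0.09 and 0.50, inside the wider band, and Snrpn lies outside it at -1.62.

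Meg3, Rian and Mirg do not encode proteins, and RNAs listed here as nuclear and noncoding were also present in the purified RNA. Where these RNAs lay in the cell was not measured. Malat1 was at 10148 and 18064 CPM, and Miat at 242 and 309 CPM. Neat1, which builds nuclear paraspeckles, was at 2.81 and 3.91 CPM. Snhg11, which GENCODE M21 types as protein coding, was at 365 and 248 CPM. Meg3 lay between Malat1 and Snhg11, and its fold of 1.10 between the libraries was smaller than that of Malat1, whose log2 ratio was 0.92. Without an input library, RNA bound to the tagged ribosomes and RNA carried along in the pull-down cannot be told apart.

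A wider list held 44 other imprinted genes, of which 43 have a line; Zfp264 was not analysed here. Of the 43, 29 reached 1 CPM in both libraries, beside 38.1% of all lines, and their median was 20.1 CPM against 68.3 CPM for the 10 members. Some of these genes are imprinted only in other tissues or in some isoforms. The highest was Rasgrf1, a Ras exchange factor of synaptic signalling, at 1535 ± 174 CPM. Gnas, which encodes the stimulatory G protein subunit and further products of the same locus, was at 1184 ± 191 CPM. Ppp1r9a, the spine scaffold neurabin, was at 796 ± 290 CPM. Then came the noncoding RNA Peg13 (226 ± 93.8 CPM), the Argonaute gene Ago2 (219 ± 78.0 CPM), the retrotransposon-derived gene Peg10 (118 ± 24.0 CPM), the phosphatase gene Inpp5f (91.1 ± 23.8 CPM) and the splicing factor gene Zrsr1 (83.3 ± 8.62 CPM). Rasgrf1, Gnas and Ppp1r9a stood above every member but Meg3 in read counts.

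Of the 43, 6 had 0 counts in both libraries, which allows at most 0.0958 CPM in replicate 1. These were Magel2, Mkrn3 and Peg3os, named above, the calcitonin receptor gene Calcr, the noncoding RNA H19 and the placental growth regulator Phlda2.

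Of the 23 other imprinted genes with a mean of at least 10 CPM, 4 were at least 1.5-fold higher in replicate 2, beside 9.44% of all such genes. Zdbf2 went from 19.3 to 42.4 CPM (log2 ratio 1.22, counting interval 1.09 to 1.37). Ppp1r9a (591 and 1002 CPM), Ago2 (164 and 274 CPM) and Inpp5f (74.3 and 108 CPM) had log2 ratios of 0.85, 0.84 and 0.63. Peg13 alone was at least 1.5-fold higher in replicate 1, at 293 and 160 CPM (-0.78), beside 7.12% of all such genes. Peg13 and Ago2 lie in 1 imprinted cluster and differed in opposite directions.

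Igf2, an insulin-like growth factor known from meninges and choroid plexus, was at 11.1 and 2.23 CPM (log2 ratio -2.19). Its mean was 6.64 CPM, below the 10 CPM limit, and it is named after its values were seen. Markers of those tissues did not all have the same direction. The 5 choroid plexus markers summed to 55.9 and 26.1 CPM, most of it from Kl (1565 and 847 counts), and 1 of 5 was above 1 CPM in both libraries. Ttr had 182 and 4 counts, Aqp1 3 and 0, Kcnj13 0 and 2, and Folr1 was at 0. The 5 meningeal fibroblast markers summed to 17.5 and 6.45 CPM, with 1 of 5 above 1 CPM in both libraries and Lum the highest at 14.8 and 5.35 CPM. Dcn had 68 and 17 counts and Col3a1 4 and 12. Their part in the difference of Igf2 was not tested.

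**Figure D5:**
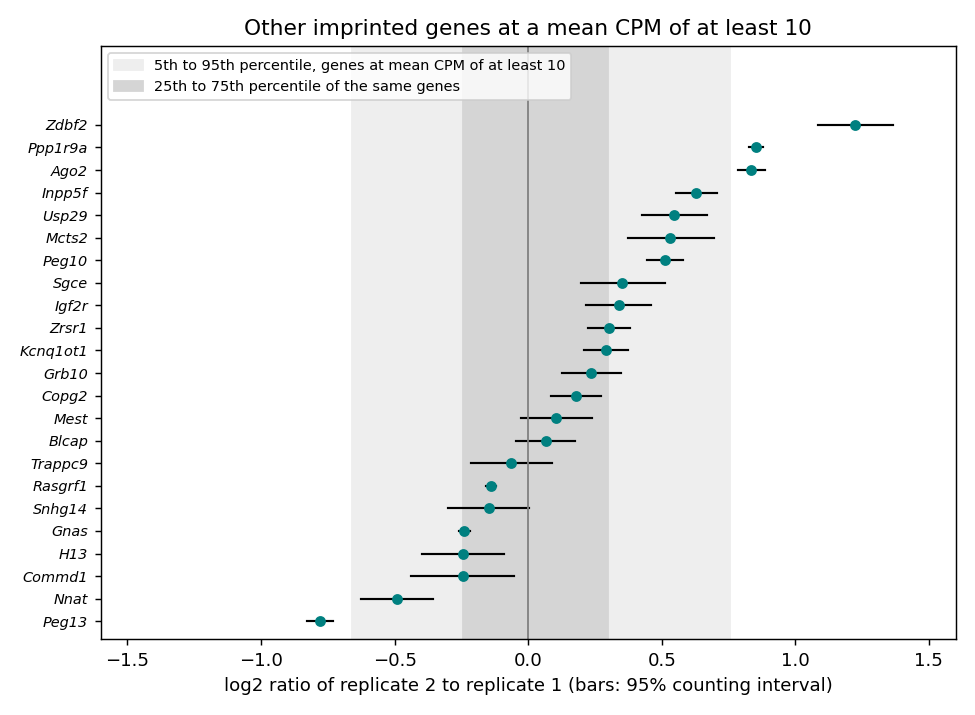
Log2 ratio of replicate 2 to replicate 1 of the 23 other imprinted genes with a mean of at least 10 CPM, with 95% counting intervals; grey bands span all genes at that level. Zdbf2, Ppp1r9a and Ago2 lie above the wider band and Peg13 below it.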

How the data were processed

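The deposited values are raw counts per gene symbol, 1 table per library. The submitters' processing notes name the aligner STAR 2.0.0e, the counter HTSeq and build mm10. Annotation, counting mode and strand setting: not given in the sources used here. Lines that name no gene (HTSeq's summary classes and the empty line unknown) stayed out of the totals, which leaves 65.0% and 64.9% of all counts on genes.

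CPM, SDs, ratios and exact (Clopper-Pearson) intervals were computed with Python 3.11.15 and SciPy 1.17.1. TMM factors came from edgeR 4.0.16 and alternative size factors from DESeq2 1.42.0, and no model was fitted, since 1 group of 2 libraries has no contrast. Exon lengths, from GENCODE M21 on GRCm38, matched 14556 of the 16707 genes with a count in both libraries. The ratio step was tested on simulated data with library totals alone, so the TMM scaling was not part of that test. The chi-square of the counts between the libraries was 67.8 times its degrees of freedom, so they were counted as 2 samples.

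The members and all lists were chosen with earlier results of these data known. Named genes are the 10 members, the 8 highest other imprinted genes, those of the members' clusters, those at 0, and those at 10 CPM or more that differed at least 1.5-fold. Likeness of pattern to other genes was not computed, since 2 libraries give no pattern.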

Additional observations from a re-analysis of the deposited data

Results flagged for a closer look

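Outside the gene lines, 3 summary classes that entered no comparison held counts in both libraries. Reads over several genes, the class that can hold reads of Snrpn and Snurf, made up 2.61% of all counts in replicate 1 and 2.56% in replicate 2. Reads on no annotated feature made up 16.7% and 17.0%, and reads with more than 1 alignment 15.7% and 15.5%. Groups of 2 libraries allow no check for an outlying sample.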

How the results depend on the processing

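Of the values recomputed under another setting, 113 stayed within their allowance and 10 did not. Those 10 include the levels of Meg3 (2269 CPM) and Rian (68.3 CPM) without Rn45s and Lars2 in the totals. They also include 6 log2 ratios under library totals alone, which shifted every ratio by 1 amount and turned none. The order per kilobase kept 5 to 9 of the 9 members in place when a library was left out. That setting and the lengths over unshared exon bases were chosen after seeing the data. Counting members with a count in both libraries, in place of a mean of at least 10 CPM, brought in Snrpn and Mirg, and 1 member was then at least 1.5-fold higher in replicate 1. At 5 CPM in both libraries 25 other imprinted genes were detected. Leaving out a library always moves a mean of 2 by less than their SD. That setting therefore could not fail for the members' levels or the count ratios within a locus. Those values, and the level of Dlk1 at 0, are among the 113 and say nothing about stability. No paired analysis was possible because there is 1 group. Depth limits Mirg, Snrpn and the genes at 0. Snrpn is also limited by the unknown assignment of reads that it shares with other genes.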

Other observations

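Some lines between Ube3a and Peg12 are in no list and were named after their values were seen. The noncoding RNA B230209E15Rik was the second highest line of the interval after Ndn, at 94.0 and 71.3 CPM, and it held 30.6% and 26.8% of the interval's counts. A330076H08Rik was at 9.96 and 11.4 CPM. Of the 12 miRNA hairpin lines there, 9 had 0 counts in both libraries, and Mir344-2 had 28 and 4 counts.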
